A study of Mus musculus with 10 samples.

Results

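The dystrophin glycoprotein complex was followed here through 8 genes chosen by symbol, Dmd, Utrn, Dag1, Sgca, Sgcb, Sgcd, Dtna and Aqp4, out of 39179 genes in the count tables. All 8 passed the filter on low counts and were among the 12690 genes tested. RNA-seq libraries of the tibialis anterior, a fast-twitch hindlimb muscle, were compared between 6 mice bearing Lewis lung carcinoma (LLC group), a transplantable mouse lung tumor line, and 4 mice injected with phosphate-buffered saline in both flanks instead (Control group). According to the sample labels all mice were C57BL/6J. The labelled age was 10 weeks in both groups, for the tumor-bearing mice the age when injected. The tumor had grown for 23 days by the labels, from 750000 cells injected into each flank, 1500000 in all. The series' design text and the methods instead give C57BL/10 males of 8 weeks and 22 days, and which account holds was not tested. The LLC muscles came from mice that outlived the whole period, so the animals that died earlier are not represented, and each library was 1 animal.

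The complex links the inside of a muscle fibre to its basement membrane. Dystrophin binds cytoskeletal actin and the membrane protein beta-dystroglycan, alpha-dystroglycan binds laminin outside the fibre, the sarcoglycans brace the assembly in the membrane, and dystrobrevin and the syntrophins gather signaling and channel proteins beneath it. Loss of single components causes several muscular dystrophies, and in those without dystrophin its paralog utrophin can take its place along the membrane.

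None of the 8 genes passed the threshold, which asked both for an adjusted p not above 0.05 and for a 1.5-fold or larger change. Of all tested genes 5.63% did, 1.65% higher and 3.99% lower in LLC. At any fold, 0 of 8 had an adjusted p of 0.05 or less in edgeR, against 6.99% of all tested genes, and 1 of 8 had an unadjusted p that low, against 27.4%. With DESeq2 the threshold was passed by 0 of 8 members and by 8.29% of all tested genes. For no member did all LLC samples lie to one side of all Control samples, as they did for 16.0% of all tested genes, 9.57% lower and 6.40% higher in LLC. With only 8 genes, counts of 0 or 1 cannot be told from these shares. Of the 8, 4 had a higher and 4 a lower estimate in LLC, with a median log2 difference of -0.04 beside 0.00 over all tested genes. All 8 genes varied more among the 6 LLC than among the 4 Control samples. As 85.13% of all tested genes did the same, the larger spread was not particular to the members. Aqp4 varied most of the 8. Levels are given as CPM, library-size-normalised counts scaled with TMM factors, and each log2 fold change is that of LLC over Control with its SE and the adjusted p of edgeR's quasi-likelihood test over all tested genes.

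Libraries held 16693209 to 21303084 counts, so that 3 counts corresponded to 0.141 to 0.180 CPM before TMM scaling. Every member had far more than 3 counts in each library. The samples LLC 1 and LLC 5 stood apart from the other libraries, with weights of 0.0929 and 0.318 in a quality-weighted limma fit against 1.14 to 2.04 for the others. Mitochondrial genes took 29.6% of counts in Control and 25.6% in LLC on average. Skeletal muscle, though not which muscle, was borne out by markers. The 7 fibre genes, among them Acta1, Ckm and Ttn, summed to 89790 to 96177 CPM in Control and 63630 to 94852 CPM in LLC, lowest in LLC 1. In bulk tissue, fewer cells of a type and less RNA per cell cannot be told apart.

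**Figure D1:**
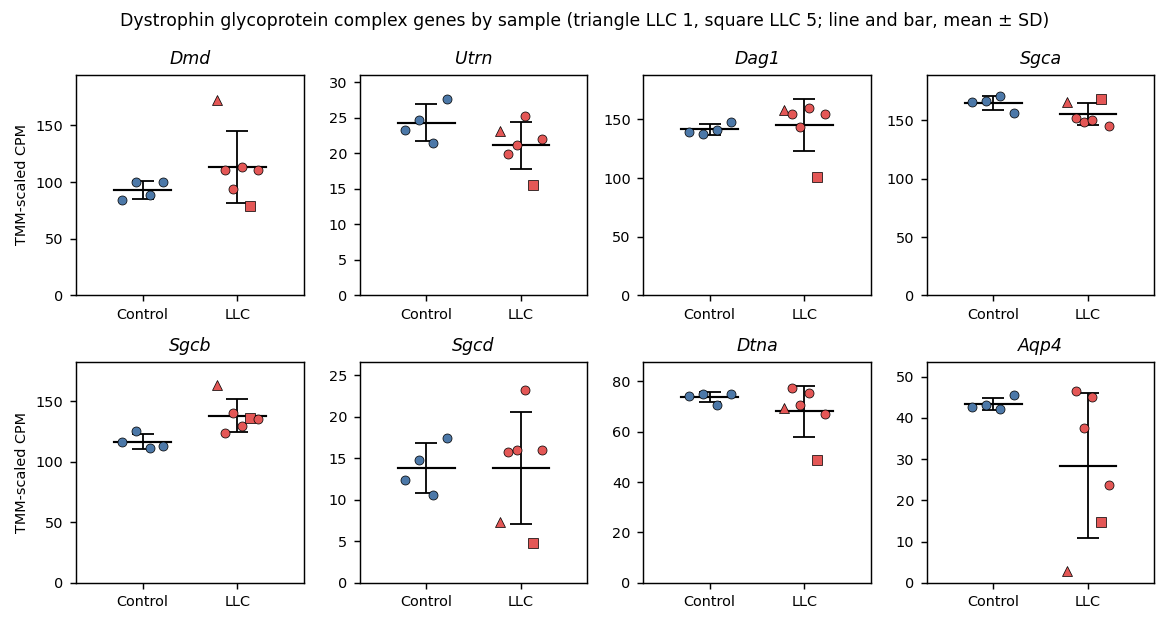
Level of each of the 8 genes in every sample (y axis, TMM-scaled CPM; x axis, 4 Control and 6 LLC samples; each panel has its own scale from 0). Points are samples, triangles and squares mark LLC 1 and LLC 5, and lines with bars give the mean ± SD. For Aqp4 the Control points lie between 42.2 and 45.5 CPM and the LLC points between 2.93 and 46.5 CPM.

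Per kilobase of exon (RPKM, over the merged exons of the GENCODE annotation), the members covered a wide range in Control muscle. Sgca was the highest at 94.9 ± 3.46 RPKM (SD, n = 4), followed by Sgcb at 28.8 ± 1.54 RPKM and Dag1 at 22.3 ± 0.702 RPKM, and these 3 did not overlap between samples. Aqp4 reached 6.95 ± 0.239 RPKM. Next came Dtna at 4.35 ± 0.117 RPKM and Dmd at 3.92 ± 0.341 RPKM, whose ranges overlapped. Sgcd at 1.67 ± 0.364 RPKM and Utrn at 1.42 ± 0.152 RPKM were the lowest and also overlapped. In LLC muscle the first 3 and the last 2 kept these places, with Sgca at 89.4 ± 5.42 RPKM and Utrn at 1.24 ± 0.193 RPKM. There Dmd, Aqp4 and Dtna lay at 4.76, 4.56 and 4.02 RPKM, and their sample ranges overlapped. Merged exons include all isoforms, so that genes with many alternative exons such as Dtna are understated.

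Dmd encodes dystrophin, the actin-binding rod of the complex, and lies on chromosome X at 82948870 to 85206141 (plus strand, GRCm38). It measured 84.3, 99.9, 88.4 and 100 CPM in Control 1 to 4 and 172, 111, 94.1, 113, 78.6 and 110 CPM in LLC 1 to 6. Of the LLC samples 4 were above every Control and 1, LLC 5, was below every Control, so the groups overlapped. The group means were 93.2 ± 8.12 CPM (SD, n = 4) and 113 ± 31.9 CPM (n = 6), a log2 fold change of 0.28 ± 0.18 with a 95% interval of -0.12 to 0.68 (edgeR adjusted p = 0.320). LLC 1 carried much of this estimate, which was 0.13 ± 0.11 without it (adjusted p = 0.447). Gene counts do not separate the full-length protein from the shorter products of internal promoters.

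Utrn encodes utrophin, the paralog that in adult muscle is concentrated at the neuromuscular junction (chromosome 10, 12382188 to 12869365, minus strand). Its levels were 23.4, 24.7, 21.5 and 27.7 CPM in Control and 23.1, 19.9, 21.1, 25.2, 15.5 and 22.0 CPM in LLC 1 to 6. No LLC sample exceeded the highest Control and 3 lay below the lowest. With means of 24.3 ± 2.61 and 21.2 ± 3.30 CPM, the log2 fold change was -0.20 ± 0.13 with a 95% interval of -0.48 to 0.08 (edgeR adjusted p = 0.322). It was -0.12 without LLC 5 and -0.13 without Control 4.

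Set against each other within a library, which removes the scaling between libraries, the paralogs did differ between the groups. The read count of Utrn was 0.277, 0.247, 0.243 and 0.276 of that of Dmd in Control 1 to 4 and 0.134, 0.180, 0.225, 0.223, 0.197 and 0.200 in LLC 1 to 6. All 6 LLC muscles thus had less utrophin RNA per dystrophin RNA than any Control muscle. The mean log2 ratio was -1.94 ± 0.10 (SD, n = 4) in Control and -2.39 ± 0.28 (n = 6) in LLC, a difference of -0.45 (two-sided exact permutation test over all 210 splits, p = 0.00952, which is the smallest value possible here, and 0.0238 after Benjamini-Hochberg adjustment over 5 ratios). Against Dmd, 11.7% of all genes with counts in every library had a ratio that was likewise lower in LLC without overlap, and the result is to be read beside that share.

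Dag1 encodes dystroglycan, which is cleaved into the laminin-binding alpha and the membrane-spanning beta subunit (chromosome 9, 108204634 to 108263958, minus strand). It lay at 139, 137, 141 and 148 CPM in Control and at 158, 155, 144, 159, 101 and 155 CPM in LLC 1 to 6. LLC 5 was alone below the Control range, and 4 LLC samples were slightly above it. The means were 141 ± 4.46 and 145 ± 22.4 CPM, and the log2 fold change was 0.04 ± 0.12 with a 95% interval of -0.23 to 0.31 (edgeR adjusted p = 0.854), which excludes a 1.5-fold change in either direction. Without LLC 5 it was 0.13 ± 0.07 (adjusted p = 0.290).

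The sarcoglycans form a tight subcomplex in the fibre membrane. Sgca (alpha-sarcoglycan, chromosome 11, 94962791 to 94976327, minus strand) is largely restricted to striated muscle, while Sgcb (beta-sarcoglycan, chromosome 5, 73632749 to 73647790, minus strand) is widely transcribed. The stretch just upstream of each gene's start is shown because these 2 subunits shifted relative to each other, with that of Dmd (chromosome X, 82948870, plus strand) for comparison. Any part of these stretches in that shift was not tested. The sequences are from RefSeq on GRCm38.p6, 5′ to 3′ toward the gene, and end before both the RefSeq and the GENCODE start; capitals mark E-boxes, CANNTG, the core bound by myogenic helix-loop-helix factors such as myogenin.
Sgca chr11:94976328-94976577, minus strand: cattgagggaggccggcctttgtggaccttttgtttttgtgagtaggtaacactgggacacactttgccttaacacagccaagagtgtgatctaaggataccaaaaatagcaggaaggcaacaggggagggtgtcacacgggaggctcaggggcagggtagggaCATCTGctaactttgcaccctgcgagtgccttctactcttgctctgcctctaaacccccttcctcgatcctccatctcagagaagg
Sgcb chr5:73647791-73647987, minus strand: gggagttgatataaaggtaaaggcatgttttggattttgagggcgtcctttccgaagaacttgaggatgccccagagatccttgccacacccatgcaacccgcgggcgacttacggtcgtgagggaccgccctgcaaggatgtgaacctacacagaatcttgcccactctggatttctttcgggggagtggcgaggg
Dmd chrX:82948620-82948869, plus strand: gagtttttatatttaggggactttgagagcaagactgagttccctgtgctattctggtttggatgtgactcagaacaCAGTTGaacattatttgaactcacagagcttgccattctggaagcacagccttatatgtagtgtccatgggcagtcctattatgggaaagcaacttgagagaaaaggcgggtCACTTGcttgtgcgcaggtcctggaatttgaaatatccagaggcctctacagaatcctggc
The 250 bases before Sgca hold 1 E-box and those before Dmd hold 2, a motif found in 66.2% of all 32851 RefSeq windows of that length. The 197 bases before Sgcb hold none, against 58.6% of windows of 197 bases, and hold 1 GC box, GGGCGG on either strand, against 24.1%. The Sgca and Dmd windows have no GC box. The FoxO-type letters TGTTTAC, searched on both strands, occur in none of the 3 windows and in 3.17% of windows of 250 bases. GC content was 52.8% before Sgca, 54.8% before Sgcb and 45.2% before Dmd. Of the 8 members 6 had a RefSeq window. That of Utrn is not shown, as its listed start lies 7630 bases inside the GENCODE gene.

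Sgca was among the steadiest members. Its levels were 166, 166, 171 and 156 CPM in Control and 166, 152, 149, 150, 168 and 145 CPM in LLC 1 to 6, with 4 LLC samples below the lowest Control and LLC 1 and LLC 5 inside the Control range. The means of 165 ± 6.00 and 155 ± 9.40 CPM gave a log2 fold change of -0.09 ± 0.08 with a 95% interval of -0.26 to 0.08 (edgeR adjusted p = 0.476).

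Sgcb had the smallest p of the 8. It measured 117, 125, 111 and 113 CPM in Control and 164, 124, 140, 130, 136 and 136 CPM in LLC 1 to 6, so that 5 LLC samples were above every Control and LLC 2 was within their range. The means were 117 ± 6.23 and 138 ± 13.8 CPM. The log2 fold change of 0.25 ± 0.09, with a 95% interval of 0.04 to 0.45, had an unadjusted p of 0.0220 in edgeR's fit over all genes, a level that 27.4% of all tested genes reached, and an adjusted p of 0.124. The interval stays below a 1.5-fold change. The adjusted p was 0.0622 with DESeq2 and 0.0435 with quality-weighted limma, where 18.0% of all tested genes had an adjusted p of 0.05 or less.

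Relative to Sgca, Sgcb was higher in every LLC library. The ratio of their read counts was 0.705, 0.754, 0.652 and 0.724 in Control 1 to 4 and 0.988, 0.812, 0.943, 0.862, 0.811 and 0.934 in LLC 1 to 6. The means of the log2 ratio were -0.50 ± 0.09 (SD, n = 4) and -0.17 ± 0.12 (n = 6), a difference of 0.33 (two-sided exact permutation test, p = 0.00952, adjusted over 5 ratios 0.0238). Of all genes with counts in every library, 13.5% had a ratio to Sgca that was higher in LLC without overlap. The difference lay between 0.29 and 0.36 whichever sample was left out.

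**Figure D2:**
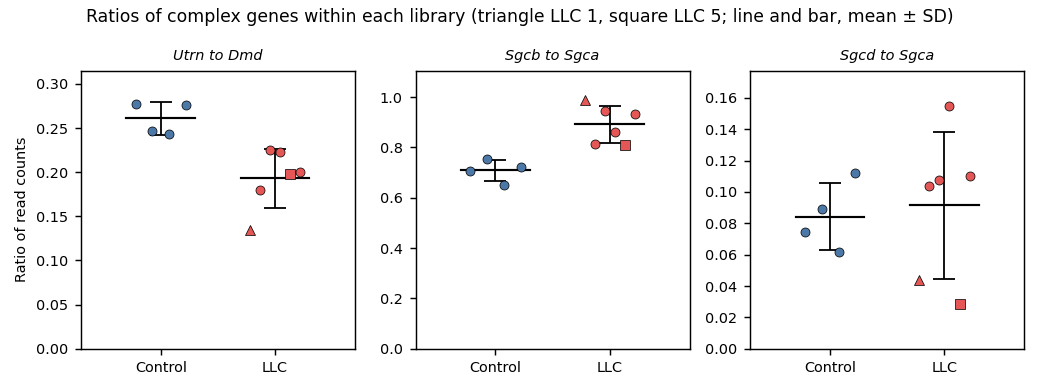
Ratio of the read counts of paired complex genes within each library (y axis, from 0; x axis, 4 Control and 6 LLC samples; triangles and squares mark LLC 1 and LLC 5; lines with bars, mean ± SD). The groups do not overlap for Utrn to Dmd, where LLC reaches at most 0.225 and Control at least 0.243, nor for Sgcb to Sgca, where Control reaches at most 0.754 and LLC at least 0.811.

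Sgcd encodes delta-sarcoglycan, the core partner of beta-sarcoglycan (chromosome 11, 46896253 to 47988969, minus strand). It showed 12.3, 14.8, 10.5 and 17.5 CPM in Control and 7.30, 15.8, 16.0, 23.3, 4.81 and 16.0 CPM in LLC 1 to 6. LLC 1 and LLC 5 were below all Control samples, LLC 4 was above them, and the other LLC samples lay among them. Means of 13.8 ± 3.01 and 13.9 ± 6.73 CPM gave a log2 fold change of 0.01 ± 0.36, whose 95% interval of -0.77 to 0.78 does not exclude a 1.5-fold change in either direction (edgeR adjusted p = 0.992). The log2 ratio of Sgcd to Sgca differed by -0.06 between the groups (two-sided exact permutation test, p = 0.914, adjusted 0.962).

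Sspn encodes sarcospan, which binds the sarcoglycans. Its exons overlap an antisense gene, and reads of the pair are told apart only where the strand setting of the counting matched the libraries. Sspn had 77.1 to 88.8 CPM in Control and 31.8, 80.0, 81.4, 90.8, 61.2 and 73.8 CPM in LLC 1 to 6. As for Sgcd, LLC 1 and LLC 5 were the 2 lowest. The log2 fold change of Sspn was -0.24 ± 0.23 (edgeR adjusted p = 0.487), and without LLC 1 it was -0.09 ± 0.10 (adjusted p = 0.589).

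Dtna encodes alpha-dystrobrevin, a cytoplasmic relative of dystrophin that binds it and the syntrophins (chromosome 18, 23415135 to 23659715, plus strand, with 1 antisense gene over its exons). The Control samples lay close together at 74.3, 74.9, 70.8 and 74.9 CPM, and LLC 1 to 6 at 69.5, 77.3, 70.8, 75.3, 48.7 and 67.1 CPM. LLC 5 was again the lowest. The means were 73.7 ± 1.98 and 68.1 ± 10.2 CPM, with a log2 fold change of -0.11 ± 0.12 and a 95% interval of -0.37 to 0.14 (edgeR adjusted p = 0.537). Without LLC 5 the log2 fold change was -0.03 ± 0.07 (adjusted p = 0.793).

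Aqp4 encodes aquaporin-4, the water channel of fast fibre membranes, held in the complex through the syntrophins (chromosome 18, 15389496 to 15410982, minus strand). The 4 Control samples were nearly identical at 42.6, 43.0, 42.2 and 45.5 CPM. In LLC 1 to 6 the levels were 2.93, 46.5, 37.6, 45.0, 14.7 and 23.7 CPM. LLC 2 and LLC 4 were thus at the Control level, LLC 3 was slightly below it, LLC 6 and LLC 5 were well below it, and LLC 1 held 57 counts where the Control libraries held 781 to 871. On the log2 scale LLC 1 was 3.89, LLC 5 was 1.56 and LLC 6 was 0.87 below the Control mean. The SD of the log2 level was 1.50 among LLC and 0.05 among Control samples, and within LLC it was larger than for 99.7% of all tested genes. The group means, 43.3 ± 1.49 and 28.4 ± 17.6 CPM, gave a log2 fold change of -0.61 ± 0.51, with a 95% interval of -1.72 to 0.50 (edgeR adjusted p = 0.442). It was -0.37 ± 0.26 without LLC 1 (adjusted p = 0.354) and -0.48 ± 0.54 without LLC 5 (adjusted p = 0.586).

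LLC 1, lowest for Aqp4, also had the lowest sum of the 7 fibre markers, at 63630 CPM, and the highest sum of 10 denervation and regeneration genes, at 252.5 CPM against 67.9 to 83.7 CPM in Control and 96.3 to 129 CPM in the other LLC samples. The part of these differences in the Aqp4 level was not tested.

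**Figure D3:**
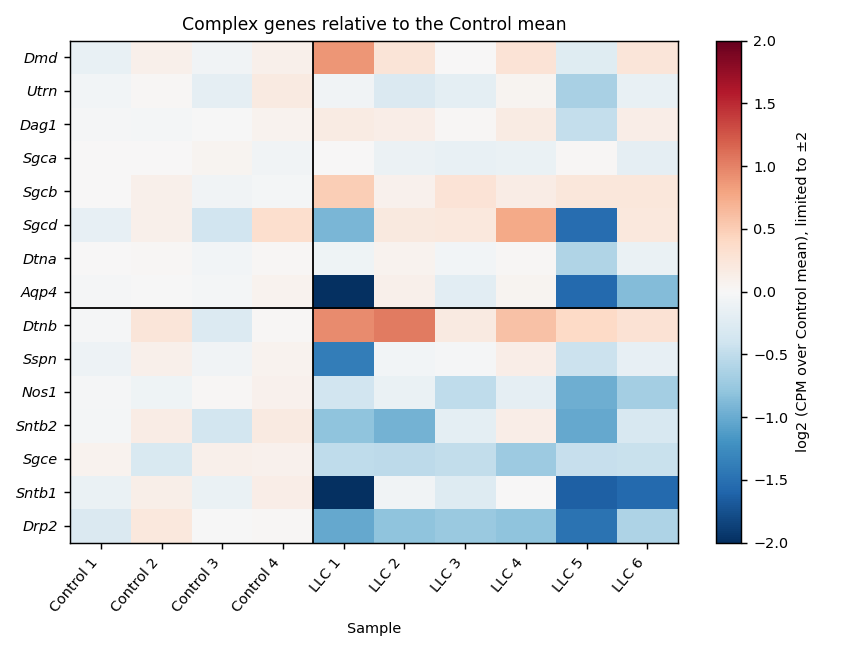
Level of the 8 members (above the line) and 7 further complex genes (below it) in each sample, as the log2 ratio to the Control mean (color, limited to ±2; columns, 4 Control and 6 LLC samples). Sgcd, Aqp4, Sspn, Sntb1 and Drp2 have their 2 lowest LLC samples in LLC 1 and LLC 5, and Aqp4 in LLC 1 lies beyond the color scale at -3.89.

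LLC 1 and LLC 5 were the 2 lowest LLC samples for Sgcd and Aqp4, an order found for 18.9% of all tested genes, and the 2 highest for Sgca, found for 20.7%. One or the other was the lowest of all 10 samples for 6 of the 8 members, as for 44.8% of all tested genes. Of the LLC samples, LLC 5 was the lowest for Dmd, Utrn, Dag1, Sgcd and Dtna and LLC 1 the lowest for Aqp4, whereas Dmd and Sgcb were highest in LLC 1. The counts for the 2 lowest and the 2 highest places are close to their shares over all tested genes. The 6 of 8 is above its share of 44.8%, but 8 members are too few to judge that difference. Nothing particular to the members is read from these counts. For Dmd the 2 samples lay at opposite ends of the LLC group. None of the 8 members passed the threshold with either sample left out.

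Of 12 further genes of the complex 9 could be tested. None rose and 1 fell past the threshold, which 3.99% of all tested genes did in that direction. The median log2 fold change was -0.45 beside 0.00 over all tested genes. Drp2, which encodes a dystrophin-related protein best known from myelinating Schwann cells, was the one that fell, from 3.18, 4.49, 3.84 and 3.94 CPM in Control to 1.90, 2.20, 2.32, 2.22, 1.39 and 2.52 CPM in LLC 1 to 6. All LLC samples were below all Control samples. Its log2 fold change was -0.89 ± 0.17 (edgeR adjusted p = 0.00883). All 6 Schwann cell markers had lower estimates in LLC as well, with 3 of 6, Pmp22 and Prx among them, past the threshold and summed levels of 43.4 to 48.8 CPM in Control and 23.5 to 32.4 CPM in LLC. Their part in the Drp2 result was not tested.

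Sgce, the epsilon-sarcoglycan found in many non-muscle and vascular cells, had 3.67 ± 0.470 CPM in Control and 2.55 ± 0.172 CPM in LLC, and all 6 LLC samples were below all Control samples. The log2 fold change of -0.52 ± 0.13 had an adjusted p of 0.0294 in edgeR's test but fell short of 1.5-fold. The adjusted p was above 0.05 under 6 of 18 alternatives, among them leaving out Control 1, Control 3, Control 4 or LLC 6, and ranged from 0.0117 to 0.234 over all of them. Markers of fibroblasts, 5 of 6 lower and 1 higher past the threshold, summed to 159 to 201 CPM in Control and 90.8 to 122 CPM in LLC. Markers of mural cells, 4 of 7 lower, summed to 693 to 723 CPM and 431 to 675 CPM. Whether these cell types account for part of the Sgce difference was not tested.

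Nos1, the neuronal nitric oxide synthase of the fibre membrane, also had non-overlapping groups, with 176, 169, 182 and 192 CPM in Control and 138, 164, 126, 158, 91.7 and 112 CPM in LLC 1 to 6. Its log2 fold change of -0.45 ± 0.15, with a 95% interval of -0.77 to -0.13, had an adjusted p of 0.0895 in edgeR, 0.0540 in DESeq2 and 0.0204 in quality-weighted limma. Drp2, Sgce and Nos1 were the 3 of 9 genes lower in LLC without overlap, a pattern of 9.57% of all tested genes. Dtnb, the beta-dystrobrevin, had a log2 fold change of 0.61 ± 0.20 (edgeR adjusted p = 0.0922) from 1.84 ± 0.270 to 2.81 ± 0.706 CPM. Sntb1 and Sntb2, the beta-syntrophins, had log2 fold changes of -0.72 ± 0.39 (adjusted p = 0.237) and -0.46 ± 0.23 (adjusted p = 0.218) at levels under 4 CPM. Sgcz had 0 counts in all 10 libraries, and the gamma-syntrophins Sntg1 and Sntg2 were too low to test, with at most 7 counts in a library.

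**Figure D4:**
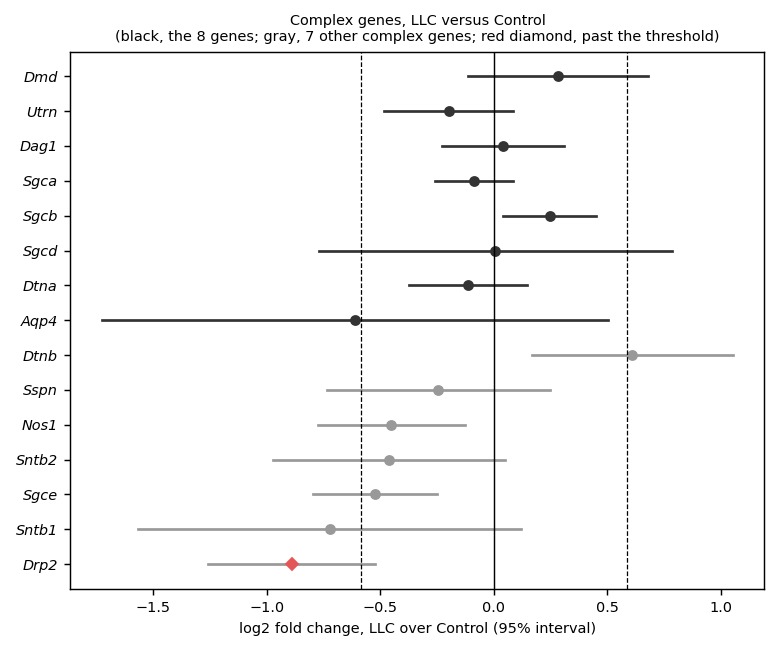
Log2 fold change of LLC over Control (x axis) with its 95% interval for the 8 members (black) and 7 further complex genes (gray; the red diamond passed the threshold). Dashed lines mark a 1.5-fold change. Intervals of Sgca, Sgcb, Dag1, Utrn and Dtna lie inside these lines, while that of Sgcd crosses both lines, that of Aqp4 the lower and that of Dmd the upper.

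Outside the fibre, alpha-dystroglycan is bound by laminins, agrin and perlecan. Of 6 genes of these ligands none rose and 2 fell past the threshold, which 3.99% of all tested genes did in that direction. The median log2 fold change was -0.37 beside 0.00 over all tested genes. Lamb1, the laminin beta-1 chain, fell from 14.3 ± 2.00 to 6.90 ± 1.60 CPM, by 1.06 ± 0.17 on the log2 scale (edgeR adjusted p = 0.00376). Hspg2, the gene of perlecan, a proteoglycan of basement membranes, fell from 183 ± 14.4 to 120 ± 27.1 CPM, by 0.60 ± 0.16 on the log2 scale (adjusted p = 0.0471). This call was lost under 11 of 18 alternatives. In 9 of them the adjusted p was above 0.05, among them leaving out any 1 Control sample, LLC 3, LLC 5 or LLC 6. Without LLC 1 (edgeR adjusted p = 0.00875) and with quality-weighted limma (adjusted p = 0.00295) only the fold fell short of 1.5. The log2 fold change of Hspg2 was -0.68 to -0.49 when single samples were left out. Lama2, the laminin chain of the muscle fibre basement membrane that dystroglycan binds, had a log2 fold change of -0.31 ± 0.13 (adjusted p = 0.146), with 5 of 6 LLC samples below the Control range and LLC 1 above it. Without LLC 1 it was -0.41 ± 0.08 (adjusted p = 0.00879), still short of 1.5-fold for Lama2. Endothelial markers, 1 of 7 lower past the threshold, summed to 321 to 390 CPM in Control and 297 to 352 CPM in LLC, and the fibroblast and mural values given above apply here too. Their part in the ligand results was not tested.

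Alpha-dystroglycan binds these ligands through a sugar chain built by a series of enzymes. Of 16 tested genes of that pathway none passed the threshold, with a median log2 fold change of -0.08 and a range of -0.45 for Gmppb, which makes a sugar donor, to 0.40 for B3galnt2, a transferase that extends the chain. The edgeR adjusted p was 0.169 for Gmppb and 0.199 for B3galnt2, which measured 192 CPM in LLC 1. Without LLC 1 the log2 fold change of B3galnt2 was 0.20 ± 0.06 (adjusted p = 0.0494). Among 24 tested genes of the costamere, the rib-like attachment of the contractile apparatus to the membrane, and of membrane repair none passed either, and the median was 0.02. Of the 4 adult myosin heavy chain genes that mark fibre type, 0 passed, with a median of -0.93. In edgeR 3 of 4 had an unadjusted p of 0.05 or less, as did 27.4% of all tested genes. With DESeq2 1 of the 4 passed, beside 8.29% of all tested genes. Without LLC 1 in edgeR 2 of the 4 did, beside 965 of the 12690 genes tested with all samples. Of 8 tested denervation and regeneration genes 1 rose past the threshold, beside 1.65% of all tested genes, and the median was 0.74. It was Myog, the helix-loop-helix factor myogenin, from 1.59 ± 0.418 to 3.64 ± 0.577 CPM (log2 fold change 1.19 ± 0.19, edgeR adjusted p = 0.00336).

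Because no member passed the threshold, the genes most like a member in pattern were sought for Sgcb, the one with the smallest p, among 10383 genes. Over the 10 samples the highest Pearson correlations of log2 CPM were with Bbs2 and Gcc2, both 0.97, Trip4 and Klhl21, both 0.96, and Atp6v1a, 0.95. Within the 6 LLC samples these correlations were 0.96, 0.95, 0.92, 0.93 and 0.96. Each point is 1 library, the values share library size and scaling, and the 5 genes were picked for this likeness, so that no test is given.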

How the data were processed

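The tibialis anterior RNA of 4 Control and 6 LLC mice was sequenced by the authors as stranded total RNA libraries, aligned with TopHat2 to mm10 and counted with HTSeq. Each deposited table gives the raw count of reads for every Ensembl gene. The methods name RefSeq while the tables list Ensembl genes, so the annotation release is not given in the sources used here. They state HTSeq's default settings, which count by strand, and whether that setting matched the library kit was not tested. Besides Sspn and Dtna, exons of some other named genes overlap antisense genes, 1 each for Nos1 and Lama2 and 2 for B3galnt2. Those of Gmppb overlap 1 antisense gene and 1 gene on the same strand. The sample labels gave the groups.

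Counts were tested with edgeR 4.0.16 in R 4.3.3 (filterByExpr with a minimum count of 10, TMM factors, quasi-likelihood test, Benjamini-Hochberg over all tested genes), checked first on simulated data. Alternatives were DESeq2 1.42.0, limma 3.58.1 voom with quality weights, other scalings and filters, a replicate block and each sample left out. CPM are TMM-scaled, log2 fold changes use edgeR's prior, and RPKM use merged GENCODE M21 exons. Non-overlap means that all samples of one group lie on one side of the other. Intervals of log2 fold changes are 95%. Ratios of raw counts within a library were compared by an exact permutation test with adjustment over 5 ratios, of which 3 are reported. Some genes of the lists enter the counts but are not reported here by name. All 8 members are named, and of each context list the genes past the threshold, besides Sspn, Nos1 and Lama2. Other genes named were chosen after their values were seen, such as Sgce, Dtnb, Sntb1, Sntb2, Gmppb and B3galnt2. The members and lists were chosen with earlier results of these data known.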

Additional observations from a re-analysis of the deposited data

Results flagged for a closer look

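Single samples were examined for distance from the rest of their group by Dixon's ratio, the gap to the nearest sample over the range of the group, for 22 groups of values of the members and their ratios. Chance flags about 1 in 20 groups, 1.1 here, and 3 were found. LLC 5 was the lowest LLC sample for Dag1, with a ratio of 0.775, and for Dtna, with 0.693, both above the critical value of 0.625 for 6 samples. Dag1 measured 101 CPM and Dtna 48.7 CPM in LLC 5, and both values come from this 1 library. Control 3 was the lowest Control sample for Dtna, with 0.852 against a critical value of 0.829 for 4 samples, although at 70.8 CPM it differed little from the others at 74.3 to 74.9 CPM.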

How the results depend on the processing

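The number of members past the threshold was 0 in the reported fit and in all 18 alternatives. Of 144 member values under these alternatives 137 kept their direction and 7 reversed, all for Sgcd, whose log2 fold change of 0.01 became -0.014 with upper-quartile factors and ranged from -0.21 to 0.18 with single samples left out. The count over all genes, 715, was 415 to 966 with single samples left out, and without Control 1 to 4 it was 417, 438, 415 and 418. Each of these fits filtered low counts anew, so the genes tested can differ between them. The samples' shared numbers come from different animals. Deviations of same-numbered samples correlated at -0.03, 0.01, -0.08 and 0.13, and only for number 4 was the best-matching LLC sample the same-numbered one. The numbers were not used as pairs in the reported fit, and shared handling of same-numbered samples was not tested. A fit with the replicate block, in which only the 8 samples whose number occurs in both groups inform the difference, gave 112 genes. Of the further complex genes, ligands and other context lists 4 genes passed, 8 with DESeq2, 8 with limma, 0 with the replicate block, and 3 to 8 with single samples left out (8 without LLC 1). With single samples left out, the log2 ratio difference was -0.50 to -0.35 for Utrn to Dmd and 0.29 to 0.36 for Sgcb to Sgca. Both had an adjusted p of 0.0595, above 0.05, without any 1 Control sample. There, 3 against 6 samples allow fewer splits, so the smallest possible permutation p is larger. Both ratios kept their side of the threshold in the other alternatives. The difference ranged from -0.26 to 0.23 for Sgcd to Sgca, with 0.09 without Control 4, 0.11 without LLC 1 and 0.23 without LLC 5. The cause of these changes was not tested. The lowest member value was 57 counts, and the part of depth in the precision was not tested.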
